A study of Mus musculus with 8 samples.

Results

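piRNA clusters are the genomic loci from which the piwi-interacting RNAs of the germ line are made. The table of small RNA counts from mouse sperm listed 329 entries of the class piRNA cluster among 1010917 annotated features, and all 329 were taken, whatever their counts. The entries had 2 kinds of name. Of these, 190 were named by a chromosome band and a number, such as 18-qE1-36451.1, and 139 by a gene, such as pi-Cbl.1. Names that differed only in the number after the last point were treated as entries of 1 locus, which gave 167 loci, 94 band-named and 73 gene-named. A locus had 1 entry in 58 cases and 2 or more in 109, with at most 12, and 133 entries held exactly the same counts as another entry of their locus, so entries are not independent measurements.

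The sperm came from C57BL/6J mice, with 4 libraries of the EtOH-Cessation group and 4 of the Control-Cessation group. Cessation had lasted a month, per the series title, and the comparison asks whether sperm small RNA of the alcohol group still differed from that of its controls. Per the labels the samples were mature sperm, although the series' design text names caput tissue, the upper segment of the epididymis. Dose and age are not given, nor whether the libraries were from different animals, so p-values refer to these libraries and not to animals.

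In mice, long single-stranded transcripts from piRNA clusters are cut into piRNAs and loaded onto PIWI proteins such as Piwil1 and Piwil2. The abundant pachytene piRNAs arise during meiosis, mostly from intergenic clusters whose transcription is driven by the factor A-MYB (Mybl1), and persist into round spermatids. Another set comes from the transcripts of protein-coding genes, largely their 3′ ends. Mature sperm no longer transcribe, so small RNAs read from clusters in sperm are carried over from earlier stages or taken up later.

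Sequences of the clusters themselves were not used here. For gene-named loci the promoter of the gene in the name could be read, and it is shown with A-MYB sites marked. A-MYB is known as the driver of pachytene clusters, which are mostly intergenic, whereas gene-derived piRNAs are another set, as given above. No promoter of a band-named locus was read, so the windows say nothing about those loci. RefSeq windows of 300 bases, 250 before to 50 after a gene start on build GRCm38.p6, were matched by symbol for 50 of the 73 gene-named loci. The promoters below belong to the 2 most abundant gene-named loci with an entry, and capitals mark letters CAACNG or TAACNG on either strand. They are Cbl on the minus strand, chr9:44233997-44234296, and Zfp382 on the plus strand, chr7:30121682-30121981.
Cbl promoter: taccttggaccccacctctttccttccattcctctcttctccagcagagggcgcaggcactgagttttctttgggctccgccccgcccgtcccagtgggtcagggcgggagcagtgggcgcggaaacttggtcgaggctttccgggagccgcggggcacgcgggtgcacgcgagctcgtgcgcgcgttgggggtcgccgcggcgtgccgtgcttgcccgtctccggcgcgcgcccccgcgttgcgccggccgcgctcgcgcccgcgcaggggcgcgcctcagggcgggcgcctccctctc
Zfp382 promoter: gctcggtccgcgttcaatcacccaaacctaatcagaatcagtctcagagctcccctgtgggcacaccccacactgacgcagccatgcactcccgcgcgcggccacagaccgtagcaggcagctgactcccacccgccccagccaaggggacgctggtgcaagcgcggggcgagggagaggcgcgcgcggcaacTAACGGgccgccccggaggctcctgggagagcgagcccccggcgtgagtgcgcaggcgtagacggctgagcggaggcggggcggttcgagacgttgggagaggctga
The window of Cbl held no such letters, and that of Zfp382 held TAACGG once, starting at base -57 from the gene start. Over all 61 windows of the matched loci 34 held at least 1 match, or 55.7%, and in the whole table, with 32851 windows, the number was 16314, or 49.7%. These starts are those of the genes, and the start of each piRNA precursor was not examined.

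Together, piRNA clusters took up very different parts of the libraries, and the groups overlapped widely. Their share of all counts was 25.7%, 13.02%, 34.5% and 14.4% in EtOH replicates 1 to 4, against 23.6%, 14.7%, 20.3% and 25.1% in Control replicates 1 to 4. The highest and the lowest library were both EtOH libraries and stood 2.65-fold apart. The means were 21.9% ± 10.1 in EtOH and 20.9% ± 4.63 in Control (SD, n = 4 each; two-sided exact permutation p = 0.8286). Library totals were 3116421 to 6805989 counts in EtOH and 4210785 to 4768713 in Control, and the summed cluster counts 405877 to 2350087 in EtOH and 617274 to 1196964 in Control. The list of 10 late germ cell transcripts summed to 282 to 394 CPM (counts per 1000000 of the library total) in EtOH and 433 to 539 CPM in Control, and that of 10 epididymal epithelial transcripts to 703 to 17625 CPM in EtOH and 355 to 488 CPM in Control, with the highest value in EtOH replicate 2. All markers of both lists were detected. Lists of 5 markers each for leukocytes, red blood cells, smooth muscle, and Sertoli and Leydig cells reached at most 98.8 CPM in any library. Counts repeated in several entries of a locus enter these class sums and totals more than once. What part these marker differences have in the cluster values was not tested. In bulk libraries, fewer cells of a type and less RNA per cell cannot be told apart.

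**Figure D1:**
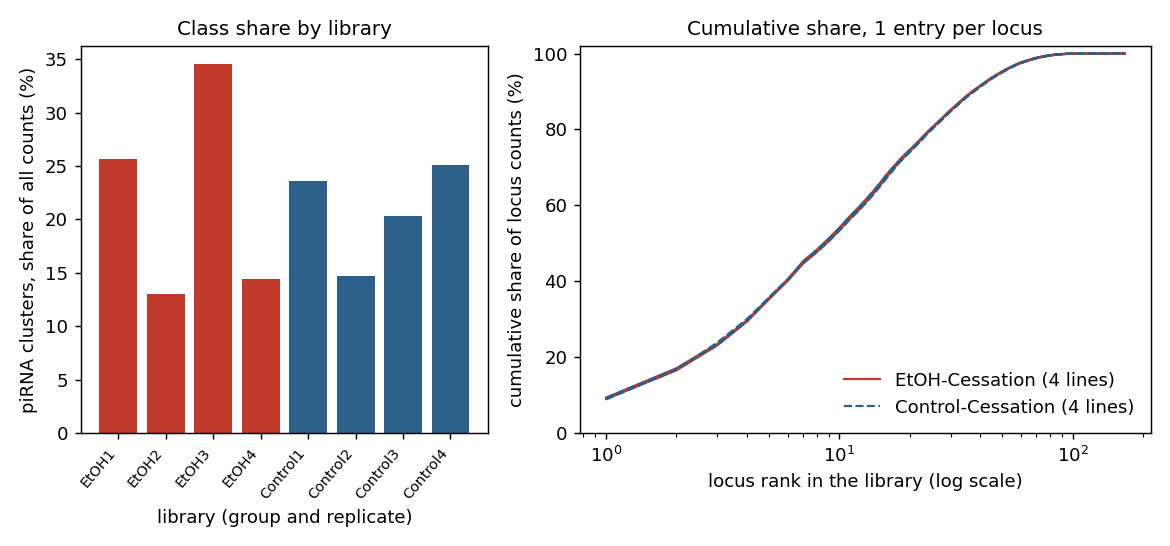
Bars give the percent of all counts of each library that fell in piRNA cluster entries, and lines the cumulative percent of cluster counts (1 entry per locus) against locus rank on a log scale, with solid lines for EtOH-Cessation and dashed lines for Control-Cessation. The bars run from 13.02% to 34.5%, whereas the 8 lines lie almost on each other.

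How the counts were divided among clusters was nearly the same in every library. To see this, each entry was expressed as its share of the summed cluster counts of its library, a level that does not depend on how much of the library the class took. The largest entry in all 8 libraries was 18-qE1-36451.1. Its share was 6.39%, 6.20%, 6.13% and 6.17% in EtOH replicates 1 to 4, against 6.35%, 6.37%, 6.05% and 6.08% in Control replicates 1 to 4. The groups overlapped, with means of 6.22% ± 0.114 in EtOH and 6.21% ± 0.172 in Control (SD, n = 4 each; exact permutation p = 0.943). Next came 9-qC-31469.1 with 5.22% ± 0.0735 in EtOH and 5.28% ± 0.0710 in Control (SD, n = 4 each). The third entry, 17-qA3.3-27363.1, had 4.51% ± 0.0807 in EtOH and 4.62% ± 0.225 in Control (SD, n = 4 each). Its wider control spread came from Control replicates 3 and 4, at 4.91% and 4.69%, with Control replicates 1 and 2 at 4.44% each. The paired entries of 2-qE1-35981 were next to identical and each held 3.30% to 3.31% in both groups. Among the 10 largest entries the coefficient of variation over the 8 libraries ran from 1.16% to 3.90%, and the permutation p adjusted over these 10 ran from 0.571 to 0.943. The nearest to a difference was 9-qA5.3-24188.1, with 4.22% ± 0.0571 in EtOH and 4.10% ± 0.101 in Control (SD, n = 4 each; exact permutation p = 0.0571, adjusted p = 0.571). With 4 libraries against 4 the smallest p this test can give is 0.0286.

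**Figure D2:**
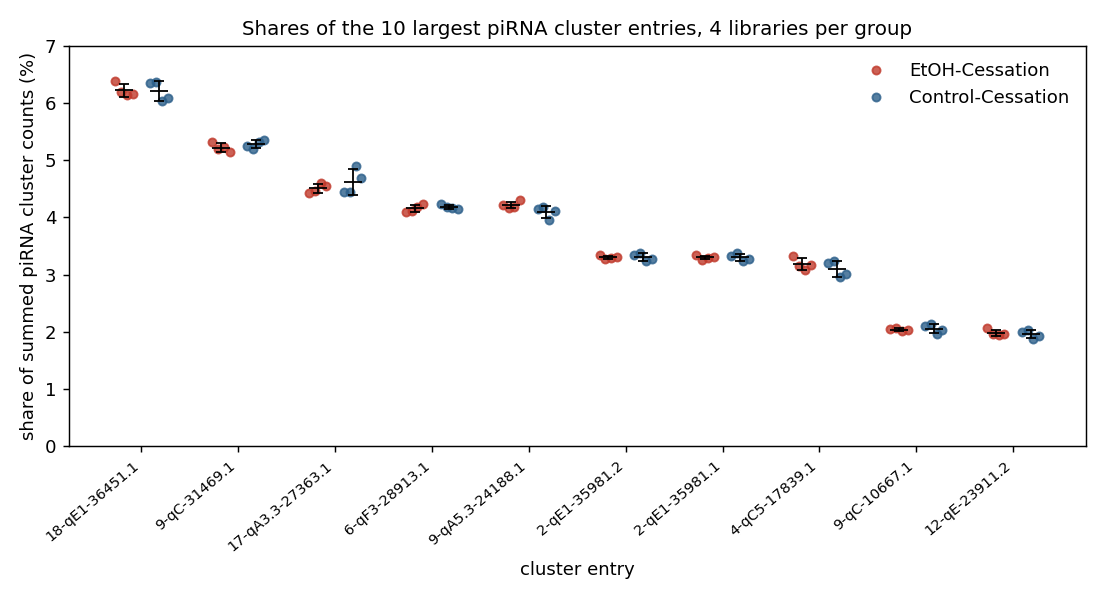
Points give each library's share of summed cluster counts, in percent, for the 10 entries with the largest mean share, EtOH-Cessation left of Control-Cessation, with lines for the mean and SD of each group. The groups overlap for each of the 10 entries, and the order of the entries is almost the same in every library.

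The class was concentrated in a modest number of loci to a similar degree in both groups. The 10 largest entries of a library held 38.2% ± 0.301 of the cluster counts in EtOH and 38.1% ± 0.394 in Control (SD, n = 4 each), and the 20 largest 54.7% and 54.6%. With 1 entry per locus the 10 largest loci held 53.7% ± 0.304 in EtOH and 53.6% ± 0.325 in Control (SD, n = 4 each), and 38 loci held 90% of the locus counts in each of the 8 libraries. The effective number of entries, the exponential of the Shannon entropy, was 72.5 in EtOH and 72.9 in Control. Of 8 such measures over entries, a pair separated the groups. The 50 largest entries held 81.3% ± 0.125 in EtOH and 81.0% ± 0.0966 in Control (SD, n = 4 each), and 71 entries held 90% of the counts in every EtOH library against 72 in every control. Each had an exact permutation p of 0.0286 and an adjusted p of 0.114 over the 8 measures, so neither passed. Counted by locus, both groups had 38 loci at 90%, and every adjusted p was 0.914 or higher.

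The rank order was also shared. The loci 18-qE1-36451, 9-qC-31469 and 17-qA3.3-27363 stood at places 1, 2 and 3 in all 8 libraries, 6-qF3-28913 and 9-qA5.3-24188 took places 4 and 5 in either order, and 2-qE1-35981 and 4-qC5-17839 were always 6 and 7. Of the 30 loci with the largest mean share, 7 kept 1 place in every library and none moved over a spread of more than 4 places. The 10 largest loci of all libraries came from a set of 11, and 8 of them were among the 10 in every library. Over the 167 loci, Spearman's rho of shares was 0.980 to 0.990 between EtOH libraries, 0.984 to 0.991 between control libraries, and 0.980 to 0.992 between an EtOH and a control library. Over all loci, pairs across the groups were thus about as alike as pairs within them. For the 63 loci with a mean count of at least 1000, pairs across the groups reached somewhat lower. There rho was 0.9975 to 0.9991 between EtOH libraries, 0.9963 to 0.9986 between control libraries and 0.9946 to 0.9989 across the groups. The lowest value was that of EtOH replicate 4 with Control replicate 3. These correlations are across loci, which share a library and are not replicates.

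The 63 loci with a mean count of at least 1000 held 98.0% of the locus counts. Their coefficient of variation over the 8 libraries had a median of 2.88%, and 52 of the 63 were under 5%. Counting error alone gave a median of 1.51% for the same loci, and the observed spread was a median of 2.03 times what counting gave. The steadiest was 6-qF3-8009, with a share between 2.23% and 2.29% in EtOH and between 2.23% and 2.25% in Control. The most variable was 13-qA5-464, at 16.5%.

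Set against the other feature classes, cluster loci kept their proportions more closely. For rows with a mean count of 100 to 1000, the log2 deviation of a row's share of its class in 1 library from its median in the other libraries was taken without sign, and the median over rows gave 1 value per library. This value had a median over libraries of 0.07 for the 30 cluster loci in that range. It was 0.45 for 76 miRNAs, 0.34 for 298 structural RNAs, 0.52 for 361 exons, 0.48 for 163 introns, 0.41 for 195 sense repeats and 0.17 for 258 antisense repeats. The value for cluster loci was lower in 8 of 8 libraries against each class. A two-sided exact permutation test that flips the sign of the difference in each library gave p = 0.0078125 for each, the smallest it can give, and the same value adjusted over the 6 classes. The libraries enter each other's medians, so they are not fully independent, and this comparison was chosen after values had been seen. The p-values are therefore descriptive only.

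No entry passed the test for a changed share. Of the 329 entries 195 had enough counts to be tested (163 band-named and 32 gene-named), and 134 did not. The edgeR quasi-likelihood test with Benjamini-Hochberg adjustment over all 10234 tested features called 0 of 195 with a higher share and 0 with a lower share, where the background over all features on this scale was 0.0% higher and 0.00977% lower. At an unadjusted p under 0.05 there were 0 higher and 5 lower entries, where the background was 14.5% and 3.86%. DESeq2 called 0 higher and 2 lower (background 10.5% and 1.74%), and limma voom with quality weights 0 higher and 0 lower (background 0.00977% and 0.0195%). The log2 fold change of share, EtOH over control, had a median of 0.01 over the 195 entries and quartiles of -0.04 and 0.04, against a median of 0.15 and quartiles of -0.27 and 1.19 over all tested features. The median over all features rested on single libraries. It was -0.01 without EtOH replicate 2, 0.41 without EtOH replicate 3 and 0.45 without Control replicate 2. That over cluster entries was 0.00 to 0.01 with any 1 library left out. Cluster entries are divided by their own sum, which holds their median near 0. For other features the value is a ratio to the cluster sum and moves with the class share. The medians and backgrounds on this scale are therefore not a like comparison. With all 8 libraries the fold change lay within 0.1 of 0 for 148 entries, within 0.2 for 164 and within 0.5 for 181. In simulated data for this comparison, with changed features drawn from all 10234 tested, the share test recovered 1.47% of those changed 2-fold and 30.3% of those changed 4-fold. These rates are over all features and were not computed for cluster entries. Whether they hold with a class share as uneven as that of the real libraries was not tested.

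**Figure D3:**
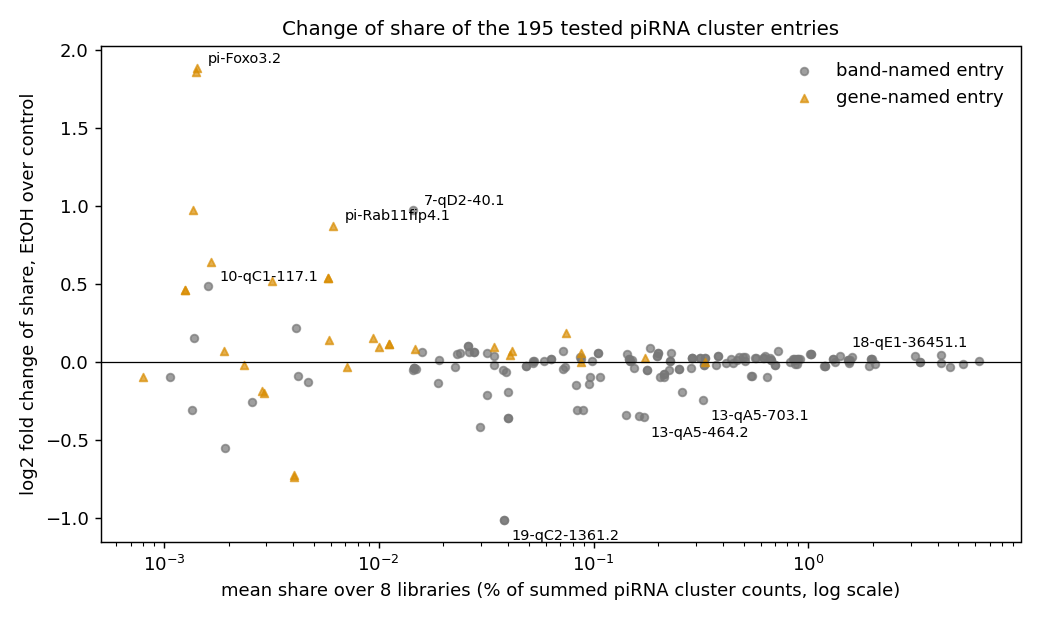
Each point is 1 of the 195 tested entries, with its mean share over the 8 libraries in percent (log scale) and its log2 fold change of share, EtOH over control. Entries above a share of about 1% sit on the zero line, and the entries that leave it are small, with 19-qC2-1361.2 at -1.01 the lowest and pi-Foxo3.2 at 1.88 the highest.

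The entry furthest from 0 by p was at 19-qC2-1361, the only band-named locus of chromosome 19. Its entries 19-qC2-1361.2 and 19-qC2-1361.3 held identical counts, so they are 1 measurement. The counts were 435, 108, 568 and 209 in EtOH replicates 1 to 4, against 509, 306, 481 and 617 in Control replicates 1 to 4. As a share of cluster counts this was 0.0255%, 0.0266%, 0.0242% and 0.0254% in EtOH, against 0.0495%, 0.0496%, 0.0545% and 0.0515% in Control. Within each group the libraries were close together, and every EtOH share lay near 0.025% while every control share lay near 0.05%. In the shallowest EtOH library, replicate 2, the 95% Wilson interval was 0.0220% to 0.0321%, still below all controls. The mean share in EtOH was 49.6% of that in Control, a log2 fold change of -1.01 (SE 0.14, unadjusted p = 9.29e-05), and the edgeR adjusted p over all features was 0.136, which did not pass. Leaving out any 1 library kept the fold change between -1.03 and -0.98. It was -0.98 with the EtOH libraries whose title identifiers begin with M (replicates 1 and 2) and -1.05 with those that begin with EM (replicates 3 and 4). DESeq2 gave -1.02 with an adjusted p of 3.79e-08 and limma voom -1.03 with an adjusted p of 0.0604. The entry was picked by its lowest p in these same 8 libraries. The interval, the leave-one-out range, the split by identifier and the other fits reuse those libraries, so they describe the difference and are not separate support for it. The remaining entry, 19-qC2-1361.1, had 5, 2, 4 and 1 counts in EtOH and 5, 0, 4 and 3 in Control. Late germ cell markers were lower in the EtOH libraries and epididymal markers higher, as given above. Their part in this difference was not tested.

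Shares did not overlap between the groups for 24 entries, 8 higher and 16 lower in EtOH, all of them among the 195 tested. The background on this scale was 2.0% higher and 2.48% lower of the 10234 tested features. For features outside the clusters the value is a ratio to the cluster sum, so this background is not a like comparison. Some of these entries belong to the same locus. By locus there were 3 higher and 7 lower of 167 loci, for which no background was computed. Neither count can therefore be read as more or fewer than elsewhere, and the loci are given as a description. The higher ones differed little. 9-qA5.3-24188 had 6.15% of locus counts in EtOH and 5.98% in Control, 15-qD1-17920 had 1.52% and 1.47%, and 9-qA5.3-1495 had 0.156% and 0.150%. The lower ones included, beside 19-qC2-1361, 3 of the 5 loci in band 13-qA5.

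In that band, 13-qA5-464 had shares of locus counts of 0.219%, 0.228%, 0.220% and 0.209% in EtOH replicates 1 to 4, against 0.234%, 0.266%, 0.312% and 0.310% in Control replicates 1 to 4. Control replicates 3 and 4 were the high ones, and Control replicate 1 lay just above the EtOH libraries. The same libraries stood high for 13-qA5-703, with means of 0.431% ± 0.0143 in EtOH and 0.510% ± 0.0466 in Control, and for 13-qA5-208, with 0.0510% ± 0.00192 in EtOH and 0.0655% ± 0.0126 in Control (SD, n = 4 each). The other loci of the band, 13-qA5-156 and 13-qA5-967, overlapped between the groups. Of these loci the entry with the lowest p, 13-qA5-464.2, had a log2 fold change of share of -0.36 (SE 0.14, edgeR adjusted p = 0.250), with -0.43 to -0.30 when any 1 library was left out. The 7 band-named loci of chromosome 13 together held 0.899% ± 0.0343 of locus counts in EtOH and 1.06% ± 0.0948 in Control (SD, n = 4 each). This sum contains 13-qA5-464, 13-qA5-703 and 13-qA5-208, which were named because their groups did not overlap, so it is not a separate result. The groups also did not overlap for the sums of chromosome 7 (10.1% in EtOH and 9.95% in Control), chromosome 10 (4.09% and 4.24%) and chromosome 19, with its single locus. A further pair of loci on other chromosomes was also lower without overlap, 10-qC1-875 with 0.350% ± 0.00685 in EtOH and 0.400% ± 0.0228 in Control, and 7-qB5-6255 with 0.301% ± 0.0172 in EtOH and 0.318% ± 0.00273 in Control (SD, n = 4 each). The last, 17-qC-59, rested on few counts, 6 to 41 in EtOH and 16 to 30 in Control for 17-qC-59.2.

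**Figure D4:**
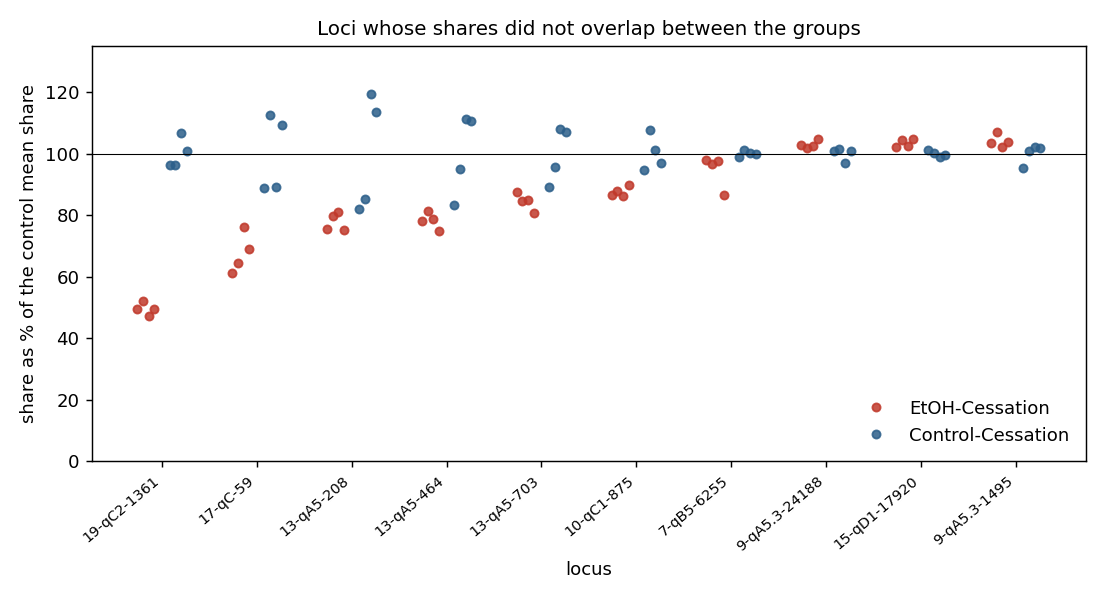
Points give each library's share at the 10 loci whose groups did not overlap, as a percent of the mean control share of the locus, EtOH-Cessation left of Control-Cessation. The EtOH libraries of 19-qC2-1361 sit near 50% in a narrow band, those of the other loci lie nearer to their controls, and the control points of the 13-qA5 loci are spread out.

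The entries with the lowest p among those with a higher share were all rare. pi-Foxo3.2, named after a forkhead transcription factor gene, had 20, 23, 11 and 15 counts in EtOH replicates 1 to 4, against 3, 2, 12 and 3 in Control replicates 1 to 4. Control replicate 3 reached the EtOH range, and EtOH replicate 2 had by far the largest share. The log2 fold change of share was 1.88 (SE 0.90, edgeR adjusted p = 0.304), and it ranged from 0.99 to 2.85 when any 1 library was left out. pi-Rab11fip4.1, named after a gene for an effector of the vesicle traffic protein Rab11, had 94, 54, 92 and 76 counts in EtOH, against 46, 21, 52 and 42 in Control (log2 fold change of share 0.87, edgeR adjusted p = 0.317, and 0.51 to 1.10 with any 1 library left out). 7-qD2-40.1 had 152, 108, 154 and 282 counts in EtOH, against 40, 106, 106 and 70 in Control (log2 fold change of share 0.97, edgeR adjusted p = 0.464, and 0.52 to 1.39 with any 1 library left out). The shares of both overlapped between the groups. For 10-qC1-117.1, at 8 to 61 counts in EtOH and 9 to 14 in Control, the log2 fold change of share was 0.48 (edgeR adjusted p = 0.448, and 0.25 to 0.59 with any 1 library left out). The lowest of these values came without EtOH replicate 2 for pi-Foxo3.2 and pi-Rab11fip4.1, without EtOH replicate 4 for 7-qD2-40.1 and without EtOH replicate 3 for 10-qC1-117.1.

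Gene-named loci were the minor kind. All 73 together held 1.34%, 1.47%, 1.30% and 1.39% of locus counts in EtOH replicates 1 to 4, against 1.34%, 1.36%, 1.29% and 1.29% in Control replicates 1 to 4. The groups overlapped, with 1.37% ± 0.0729 in EtOH and 1.32% ± 0.0371 in Control (SD, n = 4 each; two-sided exact permutation p = 0.257). The largest was pi-Cbl, named after a ubiquitin ligase gene, whose share of locus counts was 0.484% ± 0.00226 in EtOH and 0.485% ± 0.0234 in Control (SD, n = 4 each). It was followed by pi-Zfp382, after a zinc finger protein gene, with 0.256% in EtOH and 0.252% in Control. pi-Eif2c2 carries an older name of the Argonaute gene Ago2 and had 0.131% in EtOH and 0.126% in Control. pi-Eif4ebp2, after a repressor of translation initiation, had 0.116% ± 0.0172 in EtOH and 0.102% ± 0.00239 in Control (SD, n = 4 each), and EtOH replicate 2, at 0.140%, stood above the remaining libraries of its group, at 0.103% to 0.118%. These values were counted under the cluster entries. Whether fragments of the messenger RNAs of the genes were counted in them was not tested. EtOH replicate 2 had the highest share of gene-named loci, 1.47%, and the highest sum of epididymal markers, 17625 CPM. In EtOH replicates 1, 3 and 4, with shares of 1.34%, 1.30% and 1.39%, the marker sums were 2537, 703 and 1243 CPM. Control replicates 1 to 4, with 1.34%, 1.36%, 1.29% and 1.29%, had 355, 415, 488 and 485 CPM. Whether the share and the markers are related was not tested.

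Band-named loci lay on 18 chromosomes and were unevenly spread. Chromosome 9 held 16.9% of locus counts in 6 loci, chromosome 17 held 11.3% in 6, chromosome 7 held 10.02% in 10, chromosome 6 held 9.54% in 7 and chromosome 18 held 9.20% in 2, each a mean over the 8 libraries. Chromosome 10 had the most loci, 11, with 4.16%. The number of loci on a chromosome therefore did not give its share. In band 17-qA3.3 the 3 loci together held 8.26%, 8.40%, 8.65% and 8.40% in EtOH replicates 1 to 4, against 8.23%, 8.20%, 9.34% and 8.84% in Control replicates 1 to 4, and Control replicates 3 and 4 were again the high libraries.

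The last number in a band name, from 4 to 36451, followed the share. What the number counts is not given in the sources used here. Over the 94 band-named loci Spearman's rho between this number and the mean share was 0.819 in EtOH and 0.819 in Control, given as a description across loci. Of the 10 loci with the highest numbers 7 were among the 10 with the largest share, and of the 20 highest 15 were among the 20 largest. Some loci stood far from this order. 10-qB4-6488 was at place 29 by number and 82 by share, with 58 to 347 counts in EtOH and 83 to 189 in Control. 15-qE1-3710 was at place 38 by number and had 1 count in all 8 libraries together. In the other direction, 4-qB3-277 was at place 79 by number and 39 by share. These loci were chosen after their values were seen.

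**Figure D5:**
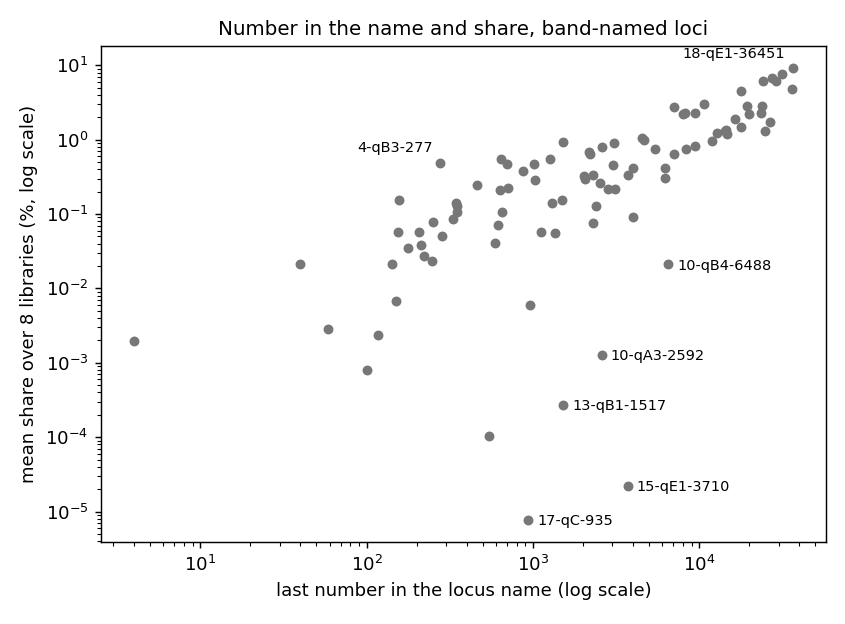
Each point is 1 of the 94 band-named loci, with the last number of its name on the horizontal axis and its mean share of locus counts in percent on the vertical axis, both on log scales. Most points follow a rising band that ends at 18-qE1-36451, and 5 named loci lie far under it.

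On the scale of whole libraries no entry passed either. With library totals and trimmed mean (TMM) factors, edgeR called 0 of 195 entries higher and 0 lower, where the background was 0.0489% higher and 0.137% lower. At an unadjusted p under 0.05 there were 2 higher and 2 lower entries, where the background was 17.9% and 9.15%. 19-qC2-1361.2 averaged 51.0 ± 22.2 CPM in EtOH and 116 ± 22.1 CPM in Control on TMM-scaled totals (SD, n = 4 each), a log2 fold change of level of -1.18 (SE 0.41, edgeR adjusted p = 0.0922). It passed, with its twin entry, in DESeq2 (-1.10, adjusted p = 0.0353) and limma voom (-1.21, adjusted p = 0.0350), and in edgeR without EtOH replicate 3 (-1.53, adjusted p = 0.0262). The background of lower calls was 3.95%, 2.34% and 3.63% in these 3 fits, and that of higher calls 13.1% in DESeq2 and 4.06% in limma voom, where no cluster entry was called higher. The median log2 fold change of level over the 195 entries was -0.14, and over all tested features -0.09. The cluster median moved with the libraries included, as without EtOH replicate 2 it was 0.13 and without EtOH replicate 3 it was -0.52.

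Genes of the piRNA pathway were thinly covered. Of 28 genes, 27 had exon rows and 5 exon features were tested. edgeR called 0 of these 5 higher and 0 lower, where the background of the fit was 0.0489% and 0.137%. None had an unadjusted p under 0.05, where the background was 17.9% higher and 9.15% lower. With 5 features, neither count describes the pathway as a whole. The median log2 fold change of level of the 5 features was -0.17, against 0.70 over the 4600 exon features tested. Exon proportions were uneven between libraries. Their deviation from the other libraries, as defined above, was 2.45 in EtOH replicate 2 and 0.34 to 0.85 elsewhere. How far the exon median rests on that library was not tested, so the medians are not a like comparison. Piwil2, which binds piRNAs before and during meiosis, had 105, 25, 137 and 64 counts over its exons in EtOH replicates 1 to 4, against 74, 45, 57 and 97 in Control replicates 1 to 4, or 13.8 ± 5.29 CPM in EtOH and 15.3 ± 4.25 CPM in Control (SD, n = 4 each). Piwil1, the PIWI protein of pachytene piRNAs, had 4.01 ± 2.17 CPM in EtOH and 3.38 ± 0.878 CPM in Control. Tdrd6, a scaffold of the germ cell granules of spermatids, had 4.95 ± 2.22 CPM in EtOH and 5.15 ± 3.82 CPM in Control (SD, n = 4 each). Tdrd7, another tudor domain protein of these granules, had 6.04 ± 3.12 CPM in EtOH and 2.94 ± 0.571 CPM in Control (SD, n = 4 each), and none of its exon features had enough counts to be tested.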

How the data were processed

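Per the labels only read 1 was used, and cutadapt (no version stated) is the trimming tool in the submitters' processing notes. The deposited values are whole-number counts per annotated feature with no normalization, made by the authors. Aligner, build, annotation and the handling of multi-mapping reads were not given in the sources used here. Reads counted for several entries of a locus enter the sum of entries more than once, so locus values use the entry of each locus with the highest total.

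Groups came from the treatment label. Features that passed filterByExpr (defaults, minimum count 10 and minimum total 15) were fitted over the whole table with edgeR 4.0.16 in R 4.3.3 (quasi-likelihood test), with p-values adjusted by Benjamini-Hochberg over 10234 features at 0.05. The library size was the summed cluster counts for shares, and the library total with trimmed mean of M values factors for levels. Named values were tested by exact permutation of the group labels over all 70 arrangements. Alternatives used DESeq2 1.42.0 and limma 3.58.1. The steps were tested on simulated data with 200 of 10234 features changed. Intervals are Wilson and cover counting error only. A count of 0 allows a share of up to 0.000128% to 0.000739% (3 counts).

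Entries were named by largest mean share (10), by lowest p in the share fit (5 per direction) and by largest mean share among those whose groups did not overlap (3 per direction). Members and lists were chosen with earlier results of these data known.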

Additional observations from a re-analysis of the deposited data

Results flagged for a closer look

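Within-group gaps were examined for 80 group values, and 3 stood out as 1 library far from the other 3 of its group. Chance flags about 1 in 20 groups. EtOH replicate 1 had a share of 2.06% for 12-qE-23911.2, against 1.95% to 1.96% in the other EtOH libraries. Control replicate 3 had a share of 0.00136% for pi-Foxo3.2, against 0.000251% to 0.000324% in the other controls, and the same value for its near-identical entry pi-Foxo3.1.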

How the results depend on the processing

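No paired analysis was possible because the labels give no replicate numbers that the groups share. On the share scale the number of entries past the threshold was 2 with DESeq2 (both of 19-qC2-1361) and 1 higher entry without a count filter (background 0.35%; pi-Rplp1.1, at 2, 37, 1 and 10 counts in EtOH and 2, 0, 2 and 0 in Control, chosen after its values were seen), and 0 under the 16 other alternatives. On the level scale it was 2 with DESeq2 and with limma voom, and 0 to 2 when 1 library was left out.

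The class share difference, EtOH minus Control, was -1.95 percentage points when miRNA counts were left out of the total, and -3.22 to 3.95 with 1 library left out. Among concentration measures, leaving out the largest cluster gave -0.0578 for the largest entry and -0.75 for the number of entries at 90%. A mean count of at least 10 also gave -0.75 for that number, and 1 entry per locus gave 0. By locus the effective number after Simpson differed by 0.00159 and the share of the 50 largest by 0.0905. With 1 library left out the ranges were -0.0447 to 0.0638 for the largest entry, -0.0898 to 0.00974 for the 5 largest, -0.119 to 0.162 for the 10 largest, -0.0412 to 0.364 for the 20 largest, 0.254 to 0.354 for the 50 largest, -0.219 to 0.138 for the effective number after Simpson and -1 in each case for the number at 90%, where 3 libraries against 4 cannot give a p under 0.0571.

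Differences in share of named entries turned sign with 1 library left out for 18-qE1-36451.1 (-0.0447 to 0.0638), 6-qF3-28913.1 (-0.0433 to 0.00153), 2-qE1-35981.2 (-0.0293 to 0.0187), 2-qE1-35981.1 (-0.0285 to 0.0192), 9-qC-10667.1 (-0.0525 to 0.00878) and 12-qE-23911.2 (-0.00124 to 0.0509). For 9-qA5.3-24188 the difference by locus was 0.177 with an unadjusted exact permutation p of 0.0286. The causes were not tested.

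The median log2 fold change of level over clusters minus that over all features was -0.05 with trimmed mean of M values, -0.06 with median-of-ratios factors and -0.06 with library size alone, which moved the median of all features to 0.14. This difference was not stable, with -0.34 without EtOH replicate 3, -0.25 without Control replicate 2, 0.04 without EtOH replicate 2, 0.03 without EtOH replicate 4 and 0.13 without a count filter. Low counts limit the rare entries, since 131 of 329 had a mean count under 10.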
